A study of Mus musculus with 6 samples.

Results

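Genes for ribosome biogenesis and RNA polymerase I were examined in RNA-Seq of mouse CD8+ T cells. The set holds 48 genes chosen by name, from RNA polymerase I subunits to assembly factors of both ribosomal subunits, out of 54446 genes in the deposited files. All 48 were found, and all 48 passed the limit for testing, an average of 1 FPKM or more. FPKM counts the fragments of a transcript relative to its length and to the number of fragments sequenced, and a gene's value here is the sum over its transcripts. The RNA came from splenic CD8+ T cells of wild type C57BL/6 mice aged 8 weeks. There were 2 libraries for each of 3 groups. Unstimulated cells were fresh cells. Control cells had been activated through CD3 and CD28, by antibodies bound to the plate, and cultured for 72 h without magnets. SMF cells were activated in the same way on magnets giving a static magnetic field of 0.3 T. CD8+ T cells had been enriched by negative selection, which leaves some other spleen cells. Nothing in the sources used here says whether the 2 libraries of a group came from separate mice or cultures, so the p-values measure only the spread between these libraries, which may be technical.

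Ribosomes are built in the nucleolus. RNA polymerase I copies the ribosomal DNA into one long precursor RNA, small nucleolar ribonucleoproteins (snoRNPs) modify it, and a large set of assembly factors cuts, folds and packs it into the small (40S) and large (60S) subunits. Resting T cells make few ribosomes and enlarge their nucleoli after activation. Many of these genes are known targets of MYC. The genes studied here encode this machinery, and the ribosomal RNA itself was not measured.

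Stimulated CD8+ T cells had more of this RNA than fresh cells, and the SMF libraries had more than the control libraries. Summed over the 48 genes, the level was 1108 and 1275 FPKM in the unstimulated libraries, 2165 and 2433 FPKM in the control libraries and 4359 and 4465 FPKM in the SMF libraries. In this sum every library of a group was apart from those of the other groups. With 2 libraries against 2, an exact permutation test of a single value cannot give a two-sided p below 0.333, so the sum is given without a test. As a share of the FPKM of all protein-coding genes, the set took 0.468% and 0.515%, then 0.821% and 0.885%, then 1.29% and 1.31%. Npm1 alone made up between 19.3% and 31.3% of the sum. Without Npm1 the sums were 878 and 1029, 1513 and 1670, and 3099 and 3157 FPKM. The median gene of the set was at 8.47 and 11.6 FPKM in unstimulated, 19.7 and 24.5 in control and 47.7 and 51.4 in SMF libraries.

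**Figure D1:**
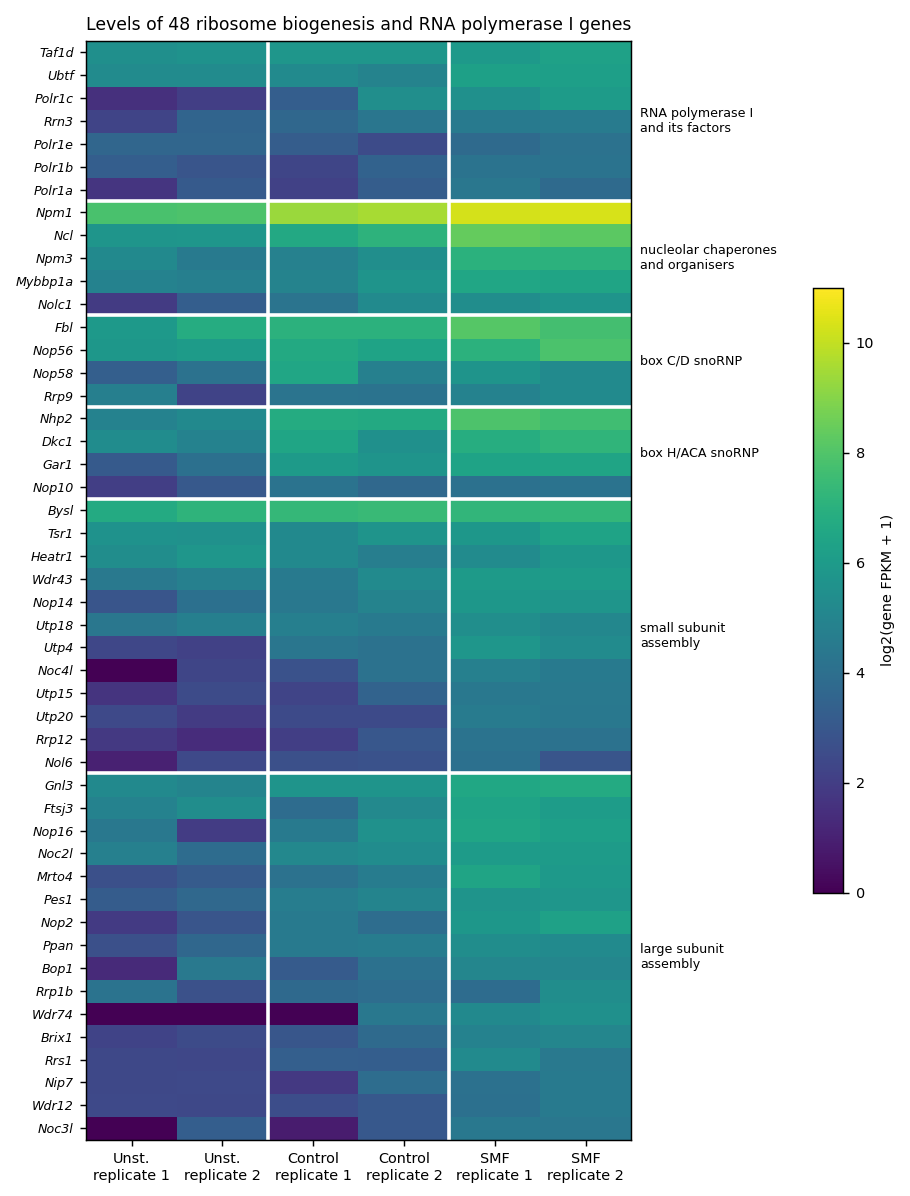
Heat map of log2(gene FPKM + 1) for the 48 genes (rows, ordered by role and by mean level) in the 6 libraries (columns, 2 per group). Most rows brighten from the unstimulated to the SMF columns, Npm1 is the brightest row at up to 1308 FPKM, and Bysl and Heatr1 keep a similar shade in all groups.

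The depth and the dates of the libraries limit these comparisons. Depth was computed as coverage times transcript length. It was 67.4 and 132 Mb in unstimulated, 64.4 and 172 Mb in control and 259 and 227 Mb in SMF libraries. Both SMF libraries were thus deeper than all the others, and the part of depth in the differences was not tested. The headers of the files name folders with 3 dates. Unstimulated and control replicates 1 share the first, unstimulated and control replicates 2 share the second, and both SMF libraries carry the third, so 0 dates hold SMF and control libraries together. The effect of the field and that of the date cannot be told apart. The SMF libraries also differed as a whole. Protein-coding genes took 69.2% and 68.7% of their summed FPKM against 49.1% to 50.5% in the other 4 libraries, and the median gene tested was 0.32 higher (log2) in SMF than in control libraries. Markers of the labelled cell type were present. All 7 CD8 T cell genes (Cd8a, Cd8b1, Cd3d, Cd3e, Cd3g, Trac and Thy1) were above 0 in every library, with sums of 744 and 931 FPKM in unstimulated, 443 and 706 in control and 1141 and 1075 in SMF libraries. These sums were highest in the SMF and lowest in the control libraries. Of the single genes, Cd8a, Cd3d and Trac followed this order without overlap between groups. Cd8b1 was highest in fresh cells, with both SMF libraries between the control libraries. For Cd3e the SMF libraries overlapped the fresh and control libraries, and for Cd3g and Thy1 the fresh and control libraries overlapped. The part of these genes in the differences between the groups was not tested. Markers of B cells and myeloid cells were higher in fresh cells. The 6 B cell genes summed to 172 and 122 FPKM in unstimulated libraries, 23.3 and 8.46 in control and 4.85 and 2.71 in SMF libraries, where Ms4a1 and Pax5 were listed at 0. The 5 myeloid genes summed to 131 and 151 FPKM, then 47.0 and 53.8, then 41.1 and 50.5, with Lyz2 listed at 0 in all 4 stimulated libraries. The 2 erythroid genes matched summed to 18.3 and 19.05, then 5.21 and 7.16, then 10.1 and 1.51 FPKM. The 3 CD4 T cell genes summed to 25.02 and 12.1, then 12.8 and 22.8, then 12.8 and 13.5 FPKM, and fresh and stimulated libraries overlapped. The part of other cells in the differences from fresh cells was not tested, and in bulk RNA fewer cells of a type and less RNA per cell cannot be told apart. The 5 activation and division genes, Gzmb and Mki67 among them, summed to 21.7 and 32.1 FPKM in fresh cells against 1897 and 1951 in control and 2875 and 4885 in SMF cells.

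The first comparison set control cells, stimulated without magnets, against fresh cells. Control and SMF cells were also cultured for 72 h, which fresh cells were not, so stimulation and culture cannot be told apart. A gene was called when the fold change was at least 2 and the unadjusted p at most 0.05 under limma, fitted to log2(FPKM + 1), which are the thresholds of the study. Between control and unstimulated cells 15 of 48 genes were called higher, or 31.2%, against 12.3% of all 14991 genes tested, and 0 were called lower against 12.6%. Control and fresh libraries were fully apart for 31 genes that were higher (24.8% of all genes) and for 3 that were lower (26.6%), which were Heatr1, Polr1e and Ubtf. With Benjamini-Hochberg adjustment over all genes tested, 4 genes had an adjusted p under 0.05 and were higher, against 4.52% of all genes. These were Npm1, Nhp2, Gar1 and Utp4. The median log2 fold change of the set was 0.84, with quartiles of 0.31 and 1.41, beside -0.05 for all genes. Within the first date 37 of 48 genes were higher in the control library, with a median difference of 0.68 on the log2 scale, and within the second date 41 were, with a median of 0.91. Of the 15 calls, 6 held when each of the 4 libraries was left out in turn. They were those of Npm1, Nhp2, Gar1, Pes1, Utp4 and Mrto4, and the call of Pes1 was lost when only coding transcripts were summed.

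The second comparison asked how SMF cells differed from control cells. Of the 48 genes 19 were called higher, or 39.6%, against 12.5% of all genes, and 0 were called lower against 5.72%. The SMF and control libraries did not overlap for 44 higher genes (37.4% of all genes) and for 1 lower gene, Bysl (17.4%). The median log2 fold change was 1.11, with quartiles of 0.81 and 1.46, beside the 0.32 of all genes. In limma 0 members had an adjusted p under 0.05, against 0.02% of all genes. An unadjusted p of at most 0.05 was found for 23 members, or 47.9%, beside 21.1% of all genes. Setting each SMF library against each control library, 45 to 47 of the 48 genes were higher, with median differences of 0.84 to 1.36. Between replicates of a group the median differences were -0.33 in unstimulated, -0.27 in control and -0.02 in SMF cells. The size of the difference depended on the scaling. When each library was set to one median, or to one FPKM sum of the multi-exon protein-coding genes, 10 of the 19 genes stayed called, at medians of 0.77 and 0.76. Over all genes the split of calls turned from 12.5% higher and 5.72% lower to 5.85% higher and 9.61% lower with one median, and to 5.73% and 9.05% with one FPKM sum, while 44 of the 48 members kept a higher mean and 0 were called lower in either. When SMF replicate 1 or SMF replicate 2 was left out, fewer genes were called higher, both among the members and among all genes. The members' median was 1.11 without SMF replicate 1 and 1.16 without SMF replicate 2, beside 0.31 and 0.32 for all genes. The calls of Ncl, Npm3, Utp20 and Mrto4 held under both scalings and without each library in turn, and that of Mrto4 was lost when only coding transcripts were summed.

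The third comparison, of SMF with fresh cells, shares its libraries with both other comparisons and is given for its own values. Here 35 of 48 genes were called higher, or 72.9%, against 22.4% of all genes, and 0 lower against 14.8%. The libraries did not overlap for 46 higher genes (39.7% of all genes) and for 0 lower genes (26% of all). An adjusted p under 0.05 was found for 29 genes, all higher, against 14.2% of all genes. The median log2 fold change was 1.91 beside 0.27 for all genes, and 24 of the 35 calls held without each library in turn and under both scalings.

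**Figure D2:**
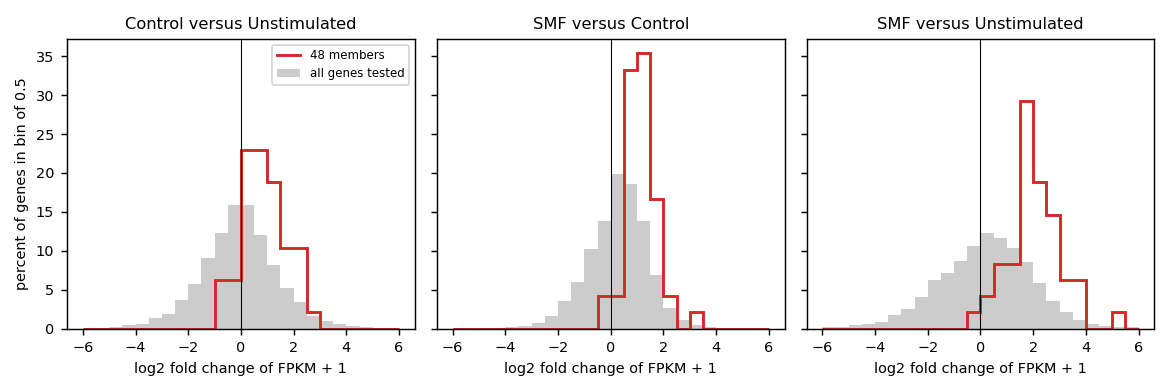
Distribution of log2 fold changes of FPKM + 1 in bins of 0.5 for all 14991 genes tested (grey bars, percent of genes) and for the 48 members (red outline, percent of members) in each of the 3 comparisons. The members lie to the right of all genes in each panel, with medians of 0.84, 1.11 and 1.91 against -0.05, 0.32 and 0.27.

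RNA polymerase I and its factors had the lowest median of the 6 role groups between control and fresh cells, a log2 fold change of 0.24. Of these 7 genes 1 was called higher, beside 12.3% of all genes. That gene was Polr1c, a subunit shared with RNA polymerase III. Its level was 1.90 and 3.12 FPKM in unstimulated, 8.81 and 42.7 in control and 44.8 and 64.2 in SMF libraries. The control libraries were far apart, and the log2 fold change of 2.58 ± 0.73 (SE) over fresh cells had an adjusted p of 0.0821 and was no call without either unstimulated library. Polr1a, the largest subunit, was at 2.28 and 7.57 FPKM in fresh cells, 3.32 and 8.34 in control and 19.6 and 12.8 in SMF cells. Fresh and control libraries of Polr1a overlapped, and both SMF libraries were above them. Polr1b, the second largest subunit, was at 8.83 and 6.57, then 3.87 and 10.1, then 17.5 and 17.3 FPKM.

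Polr1e, whose product is a polymerase-associated factor (PAF53), had its lowest values in control cells. It was at 11.4 FPKM in both unstimulated libraries, 8.55 and 4.69 in control and 12.8 and 16.8 in SMF libraries. Ubtf encodes the factor that coats active ribosomal DNA. Its level was 38.3 and 39.1 FPKM in fresh cells, 37.8 and 29.2 in control and 75.7 and 72.2 in SMF cells. Polr1b, Polr1e and Ubtf were called higher in SMF than in control cells, with log2 fold changes of 1.32 ± 0.51, 1.09 ± 0.43 and 1.13 ± 0.28 (SE) and adjusted p of 0.224, 0.23 and 0.148. All 3 calls were lost under either scaling and without control replicate 1 (Polr1b) or control replicate 2 (Polr1e and Ubtf), and those of Polr1b and Polr1e also without either SMF library. Rrn3, the initiation factor that links the polymerase to growth signals, was at 3.76 and 10.6, then 11.8 and 18.9, then 21.6 and 22.9 FPKM, and its groups did not overlap. In SMF over fresh cells Rrn3 was called higher, at a log2 fold change of 1.65 ± 0.53 and an adjusted p of 0.0695, and that call was lost without SMF replicate 1, SMF replicate 2 or unstimulated replicate 1. Taf1d, a part of the SL1 promoter complex, was called in none of the 3 comparisons, with 43.4 and 47.5, 53.5 and 54.1, and 59.5 and 77.3 FPKM.

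The nucleolar chaperones and organisers held the most abundant member. Npm1 (nucleophosmin), a histone chaperone of the granular nucleolus, was at 230 and 246 FPKM in unstimulated, 653 and 762 in control and 1260 and 1308 in SMF libraries. The groups were well apart. Its log2 fold change was 1.56 ± 0.19 (SE, adjusted p = 0.013) for control over fresh cells and 0.86 ± 0.19 (adjusted p = 0.14) for SMF over control cells, below the fold limit of a call. Ncl (nucleolin), which binds the precursor RNA, was at 52.5 and 54.0 FPKM, then 99.3 and 137, then 332 and 303. It was called in both steps, at log2 fold changes of 1.12 ± 0.26 (adjusted p = 0.0509) and 1.43 ± 0.26 (adjusted p = 0.136), although the first call was lost without control replicate 2, with one FPKM sum (0.98) and with TPM in place of FPKM (0.98). Npm3, a relative of Npm1, was at 36.3 and 22.1 in fresh, 27.7 and 42.8 in control and 128 and 134 FPKM in SMF cells. Fresh and control libraries of Npm3 overlapped, while SMF cells were higher than control cells by 1.90 ± 0.37 on the log2 scale (adjusted p = 0.136). Nolc1, a phosphoprotein that binds snoRNPs, was at 2.81 and 8.80, 17.6 and 37.2, and 41.1 and 51.0 FPKM, and its call between control and fresh cells (2.12 ± 0.59, adjusted p = 0.0784) was lost without control replicate 2 or unstimulated replicate 1.

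The box H/ACA snoRNP, which converts uridine to pseudouridine, had the highest median of the role groups between control and fresh cells, at 1.54 over 4 genes. Gar1 was at 7.58 and 15.6 FPKM in fresh, 63.4 and 50.9 in control and 82.9 and 83.7 in SMF cells. Its rise over fresh cells was 2.27 ± 0.39 on the log2 scale (adjusted p = 0.0255) in control cells. Nhp2 was at 28.1 and 36.1, then 107 and 103, then 239 and 198 FPKM, with no overlap between groups and log2 fold changes of 1.69 ± 0.26 (adjusted p = 0.0198) and 1.05 ± 0.26 (adjusted p = 0.15) in the first and second comparison. Nop10, the smallest protein of the complex, was called between control and fresh cells, a call lost without either control library or unstimulated replicate 1, and SMF and control cells differed by 0.21 ± 0.48 on the log2 scale, with 3.17 and 7.45, 17.5 and 12.0, and 16.4 and 17.3 FPKM. Dkc1, the pseudouridine synthase dyskerin, was at 39.9 and 28.3, 88.0 and 45.6, and 115 and 146 FPKM. Its call between SMF and control cells (1.02 ± 0.40, adjusted p = 0.225) was lost under either scaling and without control replicate 2 or either SMF library. That of Nhp2 was lost under either scaling and without SMF replicate 1.

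The box C/D snoRNP guides 2'-O-methylation, and 0 of its 4 genes were called between SMF and control cells, beside 12.5% of all genes. Without overlap between the libraries 3 of the 4 were higher, beside 37.4% of all genes. Fbl (fibrillarin), the methyltransferase, was at 58.9 and 112 FPKM in fresh, 135 and 132 in control and 274 and 209 in SMF cells. The groups of Fbl did not overlap, and SMF cells were 0.84 ± 0.35 higher on the log2 scale than control cells (adjusted p = 0.243). Nop56, a scaffold of the complex, was at 55 and 64.0, 102 and 82.7, and 132 and 233 FPKM. Nop58, its partner, was at 8.94 and 16.8, 90.2 and 26.5, and 50.6 and 37.1 FPKM. Both SMF libraries of Nop58 lay between the control libraries. Its call between control and fresh cells, at a log2 fold change of 1.91 ± 0.63, was lost without control replicate 1 or either unstimulated library. Rrp9, chosen here after its values were seen as the only other member of the group, was at 25.7 and 3.58, 17.9 and 17.0, and 28.4 and 37.0 FPKM and was called in no comparison.

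**Figure D3:**
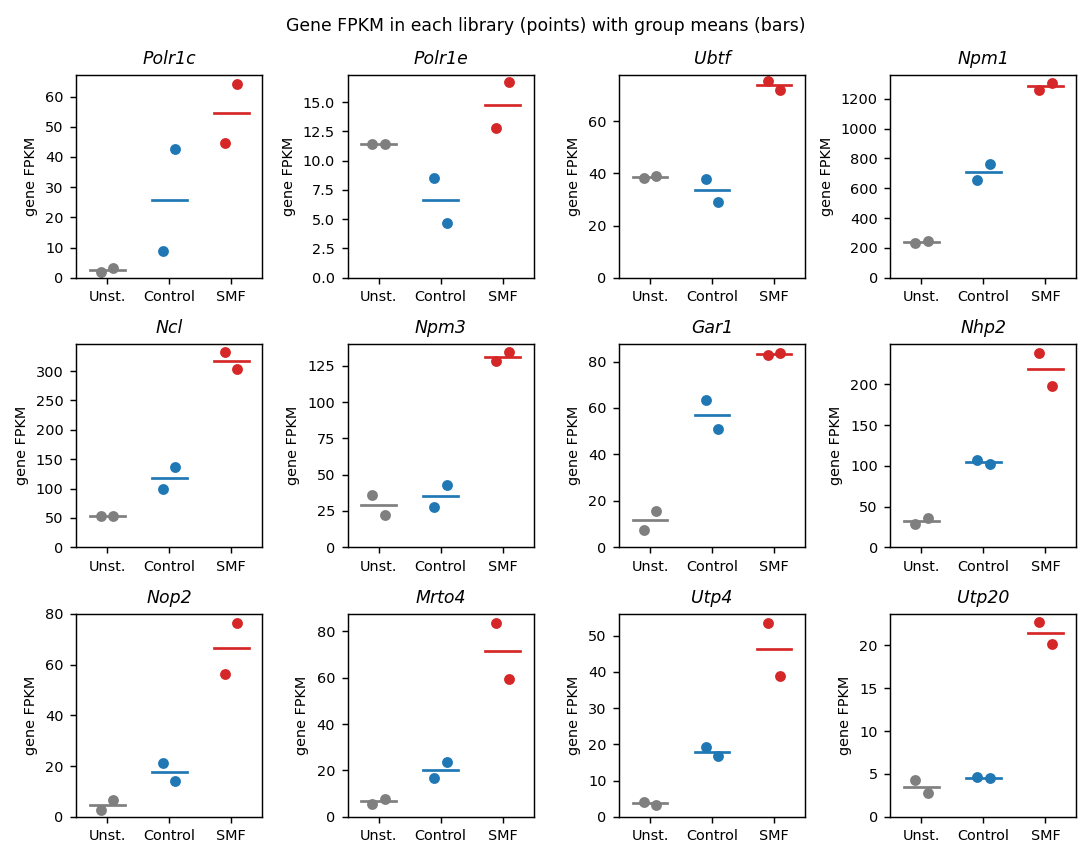
Gene FPKM (linear axes from 0) of 12 members in each of the 6 libraries; points are libraries and bars are group means of 2. Npm1 and Nhp2 step up in both stimulated groups, Npm3 and Utp20 stand high in the SMF libraries alone, at 128 and 134 and at 22.7 and 20.2 FPKM, and Polr1e is lowest in the control libraries.

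Small subunit factors differed widely among themselves. Of 12 genes 3 were called higher between control and fresh cells, 5 between SMF and control cells and 8 between SMF and fresh cells, with medians of 0.63, 1.13 and 2.04, beside 12.3%, 12.5% and 22.4% of all genes called higher. Utp4, a protein of the small subunit processome, was at 4.03 and 3.31 FPKM in fresh, 19.2 and 16.7 in control and 53.6 and 39.0 in SMF cells. It was called in each step, by 2.02 ± 0.36 (adjusted p = 0.0281) and 1.31 ± 0.36 (adjusted p = 0.167), the second of which was lost under either scaling and without SMF replicate 1. Utp20, a very large processome protein, had 4.31 and 2.74 FPKM in fresh, 4.58 and 4.55 in control and 22.7 and 20.2 in SMF cells. Its log2 fold change was 0.32 ± 0.42 in control over fresh cells and 2.01 ± 0.42 in SMF over control cells (adjusted p = 0.14). Rrp12, which helps to export both subunits, was at 2.59 and 1.63, 3.12 and 6.81, and 17.2 and 16.8 FPKM, and its call over control cells (1.67 ± 0.51) was lost without SMF replicate 1, SMF replicate 2 or control replicate 1. Noc4l was listed at 0 in unstimulated replicate 1 and at 3.91 FPKM in replicate 2, then at 5.73 and 16.9 in control and 26.5 and 22.4 in SMF libraries. The 0 enters its log2 fold change of 2.31 ± 0.86 over fresh cells, and that call was lost without either control library or unstimulated replicate 1. Bysl and Heatr1, named after their values were seen, were called in no comparison. Bysl was at 104 and 141, 159 and 173, and 148 and 154 FPKM.

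Large subunit factors had the highest median of the role groups between SMF and control cells, at 1.47 over 16 genes, of which 6 were called, beside 12.5% of all genes. Between control and fresh cells 4 of the 16 were called (12.3% of all genes), at a median of 0.93, and 12 were called between SMF and fresh cells (22.4% of all genes), at a median of 2.22. Nop2, a methyltransferase of the large subunit RNA, was at 2.68 and 6.46 FPKM in fresh, 21.3 and 14.2 in control and 56.4 and 76.4 in SMF cells. Its log2 fold changes were 1.81 ± 0.47 (adjusted p = 0.0693) and 1.86 ± 0.47 (adjusted p = 0.152). The first call was lost without control replicate 1, and the second without control replicate 2 or SMF replicate 2. Mrto4, an assembly factor of the large subunit, was at 5.39 and 7.84, 16.9 and 23.8, and 83.7 and 59.3 FPKM, with log2 fold changes of 1.49 ± 0.38 (adjusted p = 0.0671) and 1.76 ± 0.38 (adjusted p = 0.14). Against fresh cells the SMF level of Mrto4 was 3.25 ± 0.38 higher on the log2 scale (adjusted p = 0.00564). Ftsj3, a methyltransferase that acts on the precursor RNA, was at 28.7 and 41.2, 14.0 and 35.6, and 81.7 and 66.4 FPKM. It was called over control cells alone, by 1.67 ± 0.48, and that call was lost without either SMF library. Brix1 was at 3.63 and 4.71, 6.68 and 13.0, and 27.99 and 32.2 FPKM, and its call over control cells (1.58 ± 0.45) was likewise lost without either SMF library. Ppan was at 5.45 and 11.7, 21.2 and 23.9, and 41.1 and 37.5 FPKM. Ppan was called between control and fresh cells (1.37 ± 0.42), which was lost without either control library or unstimulated replicate 1. Nop16 was at 20.1 and 2.92, 22.1 and 46.1, and 86.8 and 73.7 FPKM, with fresh libraries more than 2-fold apart. Wdr74 was listed at 0 in both unstimulated libraries and in control replicate 1, and was at 20.4 FPKM in control replicate 2 and at 36.5 and 45.6 in the SMF libraries, so no fold is given for it. Pes1, Bop1 and Wdr12 form one complex (PeBoW) and are named together for that reason, outside the rule for named genes. Pes1 was called between control and fresh cells (1.35 ± 0.34, lost when only coding transcripts were summed). Wdr12 was called between SMF and control cells (1.49 ± 0.42, lost without SMF replicate 2). Both were called between SMF and fresh cells, while Bop1, with fresh libraries at 1.499 and 20.96 FPKM, was called in no comparison.

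The members' summed FPKM was also divided differently among annotated transcript types in the 3 groups. A gene's FPKM includes transcripts that keep an intron or are annotated as non-coding or as targets of nonsense-mediated decay. Transcripts of type protein coding took 60.7% and 64.4% of the members' FPKM in fresh cells, 69.8% and 79.7% in control and 84.8% and 80.8% in SMF cells. Within each group the deeper library had the higher coding share, and the SMF libraries were the deepest. The part of depth in these shares was not tested. Retained intron transcripts took 24.4% and 24.5%, 19.9% and 13.7%, and 11.2% and 15.6%. Npm1, whose own coding share was 77% to 98.4%, weighed on these values. Without Npm1 the coding shares were 56.4% and 58.3% in fresh, 59.9% and 72.4% in control and 79.2% and 73.7% in SMF cells. Control replicate 1 was then close to the fresh libraries, and control replicate 2 was close to SMF replicate 2. Over all protein-coding genes the coding share moved in the same order over a narrower range, at 68.9% and 70.7%, 70.9% and 73.6%, and 78.6% and 77.8%. Of the 48 genes 39 have coding and other transcripts, and 38 of them had a value in all libraries. The coding share of these 38 was higher without overlap between groups in 10 and lower in 2 between control and fresh cells, and higher in 8 and lower in 5 between SMF and control cells, with shares compared at 3 significant digits. Of all 6187 genes tested with both kinds of transcript and a value in all libraries, 14% were higher and 9.21% lower in the first comparison and 16.7% and 12.5% in the second. In the second comparison the members' counts were near these shares. Weighted by coverage times length in place of FPKM, the members' coding share was higher in every library (78.0% to 93.4%), as short transcripts weigh less. When only coding transcripts were summed, an alternative added after the data were seen, 15, 25 and 39 members were called higher in the 3 comparisons, with medians of 1.02, 1.44 and 2.33, beside 14.1%, 17.7% and 30.6% of the 9559 genes tested that way.

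**Figure D4:**
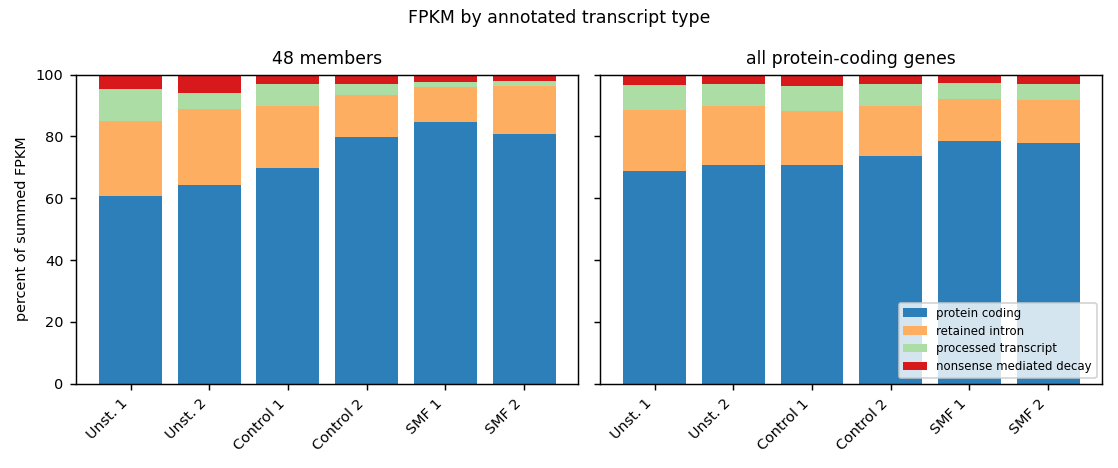
Percent of summed FPKM by annotated transcript type in each library (stacked bars) for the 48 members (left) and for all protein-coding genes (right). The coding part of the members grows from 60.7% and 64.4% in the unstimulated to 84.8% and 80.8% in the SMF libraries.

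Utp18 and Heatr1, chosen after their values were seen, showed where gene totals hid such a shift. Both encode processome proteins. The whole gene Utp18 was at 19.6 and 25.6, 25.8 and 22.4, and 42.9 and 33.0 FPKM and was called in no comparison. Its coding transcript of 14 exons was listed at 0 in both unstimulated libraries and in control replicate 1 and was at 0.992 FPKM in control replicate 2, against 38.7 and 31.8 in the SMF libraries. A processed transcript of 13 exons was at 14.1 and 17.8, 22.9 and 16.4, and 3.07 and 0 FPKM. Heatr1 was at 41.0 and 54.5 FPKM in fresh, 36.2 and 25.1 in control and 38.9 and 55.2 in SMF cells as a whole. Its full coding transcript of 45 exons was at 3.97 and 5.54, 1.64 and 8.47, and 25.4 and 19.8 FPKM, while a transcript of 17 exons annotated for nonsense-mediated decay was at 35.3 and 39.8, 13.4 and 13.0, and 3.95 and 3.39. StringTie divides reads among transcripts that share exons, and these values are its estimates. Both genes were called higher in SMF than in control cells when only coding transcripts were summed. Other members went the other way. Of 38 members, 8 had a higher and 5 a lower coding share in SMF than in control libraries without overlap. Taf1d was among the lower ones, at 30.4% and 64.9% in control and 14.4% and 9.21% in SMF libraries.

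**Figure D5:**
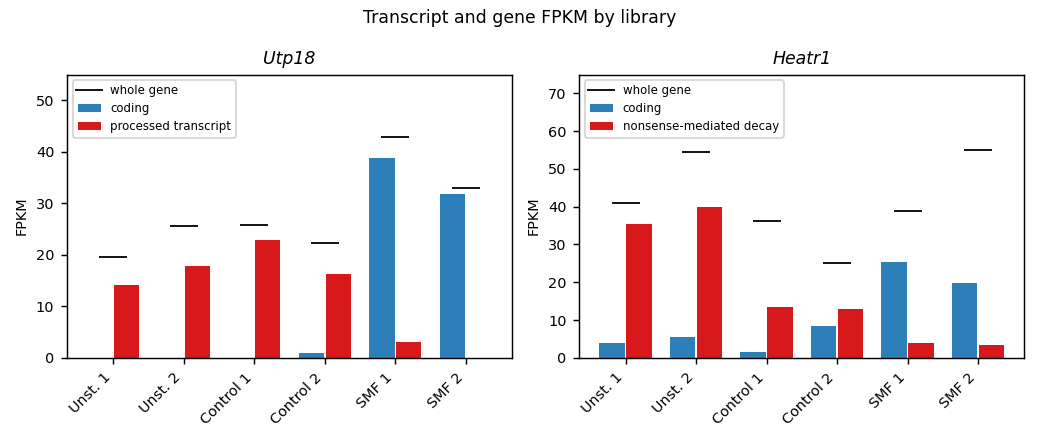
FPKM of the coding transcript (blue) and of the main other transcript (red) of Utp18 and Heatr1 in each library, with the whole gene as a black dash. In the SMF libraries the coding transcript is the taller bar, at 38.7 and 31.8 FPKM for Utp18 and 25.4 and 19.8 FPKM for Heatr1.

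Other genes of the pathway were taken from lists outside the set, and their counts stand beside 12.3%, 12.5% and 22.4% of all genes called higher in the 3 comparisons and 12.6%, 5.72% and 14.8% called lower. Of 14 other RNA polymerase I genes 3 were called higher in each of the first and second comparisons and 4 in the third, with medians of 0.20, 0.90 and 1.43. Polr1d was among them each time, at 10.02 and 10.7, 36.7 and 43.5, and 66.8 and 107 FPKM. Of 29 other small subunit factors tested 5 were called higher and 1 lower between control and fresh cells, 14 higher between SMF and control cells and 21 higher between SMF and fresh cells. The lower one was Nat10, an acetyltransferase of the small subunit RNA, at 33.8 and 33.3, 10.7 and 12.6, and 51.6 and 47.3 FPKM. Of 32 other large subunit factors 7 were called higher and 1 lower, then 14 higher, then 18 higher. The lower one was Mdn1, a giant ATPase that remodels the large subunit, at 28.1 and 16.5, 6.05 and 9.34, and 33.7 and 18.0 FPKM. Of 13 genes of the RNA exosome, which trims the precursors, 2, 5 and 9 were called higher, and of 11 RNA polymerase III subunits 3, 2 and 4, with 0 called lower. The exosome gene Exosc9 stood apart, at 34.6 and 30.7 FPKM in fresh against 1179 and 1309 in control cells. It has 510 exon bases that face exons of the cyclin gene Ccna2 on the other strand, and Ccna2 was at 21.9 and 22.0 FPKM in fresh and 55.2 and 69.4 in control cells. Whether reads of Ccna2 enter the value of Exosc9 was not tested.

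Position and copies bear on some members. Exons of 17 of the 48 genes face exons of another gene on the opposite strand. The longest such stretch, 1240 bases or 32.3% of its exon bases, was that of Tsr1 against Srr, followed by Noc2l against Samd11 with 598 bases. Samd11 was at 218 to 403 FPKM, against 13.7 to 64.5 FPKM for Noc2l. Gm15491, which faces Npm3 over 84 bases, had the highest level of the facing genes. It was at 1569 and 1374 FPKM in fresh, 1103 and 1119 in control and 612 and 841 in SMF libraries. The libraries keep the strand of the RNA and were quantified with it. Whether reads of the facing genes enter the values of the members was not tested. Between SMF and control cells 5 of the 17 members with such exons and 14 of the other 31 were called higher, beside 12.5% of all genes. Their medians were 0.94 and 1.3, beside 0.32 for all genes. Copies elsewhere with at least 200 matching bases at 95% identity or more were found for 7 members. The 4 pseudogene copies of Npm1 summed to 47.9 and 49.4, 193 and 110, and 349 and 383 FPKM, in the same order of groups as Npm1, and whether reads were divided between them was not tested. For Fbl the copies were the pseudogene Gm5812 and a stretch of Tulp4, which summed to 101 and 156, 298 and 610, and 182 and 470 FPKM, so the level of Fbl is uncertain to that extent.

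Promoters of the set were searched for 3 motifs because its genes differed from all genes in the same direction. RefSeq (GRCm38.p6) gives a start for 42 of the 48 genes in 51 windows, and the 250 bases before each start were read on both strands. The E-box CACGTG, the binding sequence of MYC, was in 3 of the 51 windows (5.88%), those of Nop2, Rrn3 and Utp18, against 6.02% of all 32851 windows. GCATGCGC was in 1 window (1.96%), that of Ftsj3, against 2.26% of all. TCTCGCGA was in 3 windows (5.88%), those of Nop14, Nop58 and Tsr1, against 0.858% of all. The stretches below are shown for the genes with the motif that was more frequent in the set than in all windows, and for Nop2 and Rrn3, with the motif or its reverse complement in capitals. They lie at chr5:34660149-34660213 (Nop14, minus strand), chr1:59684824-59684891 (Nop58, plus strand), chr11:74897983-74898050 (Tsr1, plus strand), chr6:125131793-125131858 (Nop2, plus strand) and chr16:13780621-13780686 (Rrn3, plus strand, the nearer of 2 E-boxes).
Nop14: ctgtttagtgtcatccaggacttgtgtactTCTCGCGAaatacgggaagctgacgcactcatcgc
Nop58: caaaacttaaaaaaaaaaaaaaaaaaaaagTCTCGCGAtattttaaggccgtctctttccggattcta
Tsr1: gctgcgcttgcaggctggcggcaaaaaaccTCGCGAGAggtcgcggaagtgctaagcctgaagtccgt
Nop2: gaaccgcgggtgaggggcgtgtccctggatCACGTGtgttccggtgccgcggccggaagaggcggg
Rrn3: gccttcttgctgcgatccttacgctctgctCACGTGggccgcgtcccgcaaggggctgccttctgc
The motif starts 35, 152 and 67 bases before the start of Nop14, Nop58 and Tsr1, and 60 and 48 bases before that of Nop2 and Rrn3. These are letter matches and not measured sites.

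Some members also host genes of small nucleolar RNAs (snoRNAs). Between the start and end of 9 members lie 31 snoRNA genes on the same strand, 8 of them in Taf1d, 5 in Nop56 and 4 in Nop58. Box C/D snoRNAs carry a C box and, near the 3' end, a D box, by which Fbl, Nop56 and Nop58 bind them. Snord110 in Nop56 (chr2:130275506-130275573, plus strand) and Snord11 in Nop58 (chr1:59704790-59704873, plus strand) are shown from the GENCODE M21 transcripts as examples in which both boxes were found, with TGATGA and the last CTGA in capitals.
Snord110: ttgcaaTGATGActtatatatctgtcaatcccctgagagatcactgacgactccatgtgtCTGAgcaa
Snord11: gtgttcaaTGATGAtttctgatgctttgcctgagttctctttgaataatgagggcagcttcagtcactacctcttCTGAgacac
Snord110 was at 0 and 7.96 FPKM in fresh, 0 and 3.19 in control and 6.81 and 16.7 in SMF libraries, while its host Nop56 was above 50 FPKM throughout, and Snord11 was listed at 0 in all 6 libraries. Of the 31 snoRNA genes 7 were listed at 0 in every library and 1 was above 0 in every library. They are 68 to 137 bases long, and how well the libraries recover RNAs of this length was not tested.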

How the data were processed

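RNA was measured by RNA-Seq in 6 libraries, 2 per group, grouped by the sample titles. The submitters' processing notes list Trimmomatic 0.36, HISAT2 and StringTie and the build mm10, without their settings. Per the file headers, each deposited file is the output of StringTie 1.3.5 for 1 library, run with strand on the transcripts of GENCODE M19 alone. The files hold FPKM, TPM and coverage (signal, mean reads per base) for 137767 annotated transcripts and no counts. The p-values, log2 values and shares were computed here. The authors also deposited a table of gene FPKM, left out here because its 3 value columns could be tied to no single library.

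Gene FPKM was summed over transcripts, and log2(FPKM + 1) of the 14991 genes with a mean of at least 1 was fitted with limma 3.58.1 in R 4.3.3, with the variance trend, on the 3 groups together (3 residual degrees of freedom). The procedure was tested on simulated data. Fold changes on this scale understate changes of low genes. An exact permutation test of 2 against 2 libraries cannot give a two-sided p below 0.333. Read numbers cannot be worked back from these values, so counting intervals are left out, and a 0 is reported as listed at 0. Transcript types came from GENCODE M21, overlaps from bedtools 2.31.1 and copies from minimap2 2.31, and tables and plots were made in Python 3.11.15. The members, roles and pathway lists were chosen with earlier results of these data known. Genes named were RNA polymerase I, snoRNP and nucleolar chaperone members, and for each comparison the 6 other called members with the largest fold change, no overlap between groups and a mean of at least 5 FPKM. Alternatives were other pseudocounts, filters, scalings, TPM, no variance trend, 2 groups only, no length trend, a replicate block, leaving out each library, and 2 added after the data were seen, a date block and coding transcripts only.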

Additional observations from a re-analysis of the deposited data

How the results depend on the processing

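Between SMF and control cells, 10 members were called higher with one median per library (5.85% of all genes) and 10 with one FPKM sum over protein-coding genes (5.73%). The median fell to 0.77 and 0.76. With the length trend removed 13 were called higher (9.47% of all genes), at a median of 0.91, and with gene TPM 23 were (13.6% of all genes). With coding transcripts only the median was 1.44 for SMF over control and 2.33 for SMF over fresh cells. For SMF over fresh cells the median was 1.45 with one FPKM sum, 1.66 with one median and 2.15 with a pseudocount of 0.1. Leaving out each library gave 8 to 19 higher calls between SMF and control cells (9 without SMF replicate 1 and 8 without SMF replicate 2) with medians of 0.85 to 1.27, and medians of 1.90 to 2.13 against fresh cells. Between control and fresh cells it gave 10 to 16 higher calls, medians of 0.67 to 1.06, and 0 to 1 lower calls. Control replicates 1 and 2 each gave the 1 when left out. The lone library of a group is then assumed to vary like the other groups. The share of all genes called higher also changed with the library left out. Between SMF and control cells this share fell, like the members' count, without either SMF library. The median of all genes was 0.26 to 0.35 between SMF and control cells and -0.10 to 0.00 between control and fresh cells. By coverage times length the members' coding share was 79.0% in unstimulated, 87.5% in control and 91.5% in SMF cells. With a replicate block 15, 21 and 37 members were called higher in the 3 comparisons, beside 12.1%, 12.3% and 22.4% of all genes. Between SMF and control cells 4 of them were new, and Polr1b and Polr1e were lost. Deviations of same-numbered libraries correlated at 0.10, 0.02 and 0.03 across genes. A block for the folder date, added after the data were seen, gave 17 members called higher between control and fresh cells, beside 13% of all genes.

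Some signs turned. Between control and fresh cells, leaving out one library gave ranges of -0.82 to 0.36 for Polr1b (positive without control replicate 1), -1.24 to 0.05 for Ftsj3 (without control replicate 1), -0.43 to 0.96 for Polr1a (-0.29 without control replicate 2, -0.43 without unstimulated replicate 1) and -0.07 to 0.62 for Npm3 (-0.03 without control replicate 2, -0.07 without unstimulated replicate 2). Coding transcripts only gave 0.34 for Polr1b, 0.20 for Ubtf and 0.25 for Ftsj3. Between SMF and control cells the ranges were -1.04 to 0.69 for Nop58 (0.69 without control replicate 1, 0.04 without SMF replicate 2) and -0.05 to 0.46 for Nop10 (-0.05 without control replicate 2). Under the scalings Taf1d was -0.03 and -0.01 and Nop10 -0.14 in both. Coding transcripts only gave -1.50 for Taf1d, 0.14 for Nop58 and -0.15 for Ppan. Polr1e was -0.14 in SMF over fresh cells with one FPKM sum. The cause of these turns was not tested.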
